A study of Rattus norvegicus with 3 samples.

Results

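Mast cells were picked out of single-cell RNA libraries of diabetic rat skin wounds by their transcripts, and 129 of 41236 kept cell barcodes met the rule. Barcodes were kept with at least 500 unique molecular identifiers (UMIs, 1 for each captured transcript), at least 300 genes and at most 20% mitochondrial UMIs. A kept barcode was called a mast cell when it held a UMI of at least 2 of Cpa3, Cma1, Tpsb2, Tpsab1 and Ms4a2 and no UMI of Pdgfra, Csf1r or Csf3r, which mark fibroblasts, macrophages and neutrophils. The members were thus chosen by measured UMIs, and every difference between them and other barcodes is given as a description with no test.

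The animals were wild-type male Sprague-Dawley (SD) rats made diabetic with 65 mg/kg streptozotocin, a toxin of pancreatic beta cells, and used when blood glucose was over 16.7 mM. The animals were 8-10 weeks old and had received streptozotocin at 7-9 weeks of age, and each wound was a full-thickness skin defect of 15 mm that was sampled at day 7. The 3 groups were wounds under a CO-releasing hyaluronic acid gel (CO hydrogel, where CO is carbon monoxide), wounds under a plain hyaluronic acid gel (hydrogel) and untreated wounds. Each group was 1 library, and the number of animals behind a library is not given in the labels. All 3 groups shared the strain, sex, diabetes, wound size and day, and there was no wound of a non-diabetic rat among the libraries. Before capture the tissue was digested with an epidermis dissociation kit at 37 °C, a warm enzymatic step, and ACK buffer removed red cells.

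Mast cells are resident granulocytes of skin that store proteases, histamine and heparin-like proteoglycans in granules and release them when triggered. The high-affinity IgE receptor, built of an alpha chain (Fcer1a), a beta chain (Ms4a2) and a shared gamma chain (Fcer1g), is their classical trigger, and receptors of the Mas-related family respond to cationic peptides. They depend on the receptor tyrosine kinase Kit for survival, and in rodents they also make and store serotonin. Rodent skin mast cells are of the connective tissue type, known for chymases, tryptases and carboxypeptidase A3.

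The promoters of 4 genes that carry the mast cell call or its check are shown because GATA factors and the basic helix-loop-helix factor MITF are textbook regulators of mast cell genes. The 250 bases before the start are from RefSeq (GRCr8), which is not the build of the deposited counts, and are matched by symbol. Capitals mark the letters searched on either strand: GATA with A or T before it and A or G after it, and CATGTG, an E-box that MITF binds. The windows lie on the minus strand at chr2:104673238-104673487 for Cpa3, chr15:33390134-33390383 for Cma1, chr15:33876896-33877145 for Mcpt1l1 and chr13:88224680-88224929 for Fcer1a.
Cpa3: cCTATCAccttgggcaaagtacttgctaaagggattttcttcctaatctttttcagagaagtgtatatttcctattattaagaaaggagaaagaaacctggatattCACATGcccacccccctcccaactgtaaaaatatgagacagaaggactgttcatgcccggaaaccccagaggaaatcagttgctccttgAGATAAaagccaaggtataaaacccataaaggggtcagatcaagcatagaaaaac
Cma1: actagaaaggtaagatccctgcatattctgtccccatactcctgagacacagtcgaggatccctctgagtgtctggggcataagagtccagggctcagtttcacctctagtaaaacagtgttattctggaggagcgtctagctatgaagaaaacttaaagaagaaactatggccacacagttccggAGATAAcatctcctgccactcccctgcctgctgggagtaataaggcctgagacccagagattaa
Mcpt1l1: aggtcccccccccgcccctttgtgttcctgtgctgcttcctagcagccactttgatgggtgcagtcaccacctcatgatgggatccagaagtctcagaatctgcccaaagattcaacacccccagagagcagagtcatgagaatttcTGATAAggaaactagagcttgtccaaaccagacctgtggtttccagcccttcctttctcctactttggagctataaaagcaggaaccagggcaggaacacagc
Fcer1a: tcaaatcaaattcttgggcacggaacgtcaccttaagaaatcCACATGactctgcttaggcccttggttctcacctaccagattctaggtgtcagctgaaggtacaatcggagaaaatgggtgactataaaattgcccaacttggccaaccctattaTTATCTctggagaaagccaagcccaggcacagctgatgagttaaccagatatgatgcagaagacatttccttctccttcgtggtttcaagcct

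Cpa3 had GATA letters 249 and 55 bases before the start and CATGTG 144 bases before it. Cma1 held GATA letters 64 bases before the start, Mcpt1l1 103 bases before it, and Fcer1a had GATA letters at 93 and CATGTG at 208 bases. Of the 5 rule genes, 24 named genes, Gata2 and Mitf, 26 of 31 had a promoter in the table, and of these 10 (38.5%) held GATA letters and 6 (23.1%) held CATGTG. Of all 33469 promoters 27.0% held GATA letters and 12.1% held CATGTG. Among the promoters without either motif were those of Tph1, Hdc, Kit and Gata2 itself, which says only that these letters are not in those windows.

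Mast cells made up 0.637% of kept barcodes in the CO hydrogel library (95 of 14925; exact binomial interval 0.515 to 0.778%), 0.202% in the hydrogel library (29 of 14346; 0.135 to 0.290%) and 0.0418% in the untreated library (5 of 11965; 0.0136 to 0.0975%). The CO hydrogel share was thus 3.15 times (2.06 to 4.95) that of the hydrogel library and 15.2 times (6.30 to 48.0) that of the untreated library. The hydrogel library's share was 4.84 times (1.85 to 16.0) that of the untreated library. All intervals here are 95% intervals that cover counting error only, and with 1 library per group no difference between groups has a replicate check. The hydrogel and untreated libraries held more barcodes with a Csf3r UMI, and over barcodes without one the shares were 0.670%, 0.247% and 0.0509% in the CO hydrogel, hydrogel and untreated libraries. A share can move with the number of mast cells, with the RNA that each holds and with how well digestion freed them, and these cannot be told apart here.

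The CO hydrogel and hydrogel members held few UMIs for barcodes of their libraries, while the untreated ones did not. The rule drops any barcode with a UMI of Pdgfra, Csf1r or Csf3r. Dropped barcodes with at least 10 rule-gene UMIs had medians of 3963.5 UMIs in the CO hydrogel and 5300 in the hydrogel library. The depth of the members thus depends on the rule. The median was 1594 UMIs in CO hydrogel mast cells against 5868 in that library's other barcodes, and 1999 against 5631 in the hydrogel library. In the untreated library the 5 members had a median of 7407 UMIs, against 2654.5 in the other barcodes. The 4 of them with at least 10 rule-gene UMIs had a median of 4779. The summed UMIs behind the levels were 216487 in CO hydrogel, 98763 in hydrogel and 54111 in untreated mast cells, so the untreated levels are the least precise. Barcode sequences recurred between libraries for 477 CO hydrogel and hydrogel barcodes, 600 CO hydrogel and untreated barcodes and 364 hydrogel and untreated barcodes, and only 1 of them was a mast cell in either library. A doublet score (Scrublet) placed 12 of 95 CO hydrogel, 3 of 29 hydrogel and 0 of 5 untreated mast cells among the top-scoring barcodes, and none was removed. The top-scoring part was set beforehand at 11.9%, 11.5% and 9.57% of kept barcodes in those libraries. The CO hydrogel and hydrogel counts are thus near the share of all barcodes.

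Most mast cells passed the rule with room to spare. All 5 rule genes were detected in 82 members, 4 in 23, 3 in 10 and the minimum of 2 in 14. Just outside the rule, 1320 barcodes held a UMI of a single rule gene, and 1283 of these held exactly 1 UMI. A further 57 barcodes held at least 2 rule genes but also a UMI of Pdgfra, Csf1r or Csf3r, 40 of them in the CO hydrogel, 14 in the hydrogel and 3 in the untreated library.

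Several genes that the rule did not use fitted the label in the well-marked members, while the 16 sparsely marked members held few of them. Of the 113 members with at least 10 rule-gene UMIs (82 CO hydrogel, 27 hydrogel and 4 untreated), 106 held a UMI of Kit, Fcer1a, Hdc, Tph1 or Gata2, and 113 held Mcpt1l1. The 16 members below that line (13 CO hydrogel, 2 hydrogel and 1 untreated) held 0 UMIs of Kit, Fcer1a, Hdc, Tph1, Gata2 and Mrgprb3, while 9 of them held Mcpt1l1 and 1 held Slc6a4. The 10-UMI line was drawn after these values were seen. The genes set for checking the label also held Il1rl1, Hpgds, Srgn and Slc18a2, and did not hold Tph1. Over all members Hpgds was detected in 45 and Slc18a2 in 35, the latter with 0 UMIs in the untreated group. Il1rl1 was lower in CO hydrogel members than in that library's other barcodes, and Srgn was not specific to mast cells, as given below. Fibroblast markers took a median of 2.51% of the UMIs of the 16, against 0.236% in the 113, and the 5 protease genes Mcpt1l1, Cma1, Cpa3, Tpsb2 and Tpsab1 took 0.291% against 12.1%.

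A few of the sparsely marked members were large and weighed on the sums. The untreated one had 29555 UMIs, 54.6% of that group's sum, with keratinocyte markers at 5.75% of its UMIs. A hydrogel one had 26881 UMIs, 27.2% of the group's sum, with fibroblast markers at 3.33%. A CO hydrogel one had 20409 UMIs, 9.43% of the sum, with neutrophil markers at 9.99% and keratinocyte markers at 5.48%. The 16 together held 21.1%, 31.3% and 54.6% of the summed UMIs in CO hydrogel, hydrogel and untreated mast cells. Leaving them out therefore multiplies the level of a gene that the 16 lack by 1.27, 1.45 and 2.20 in the 3 groups.

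**Figure D1:**
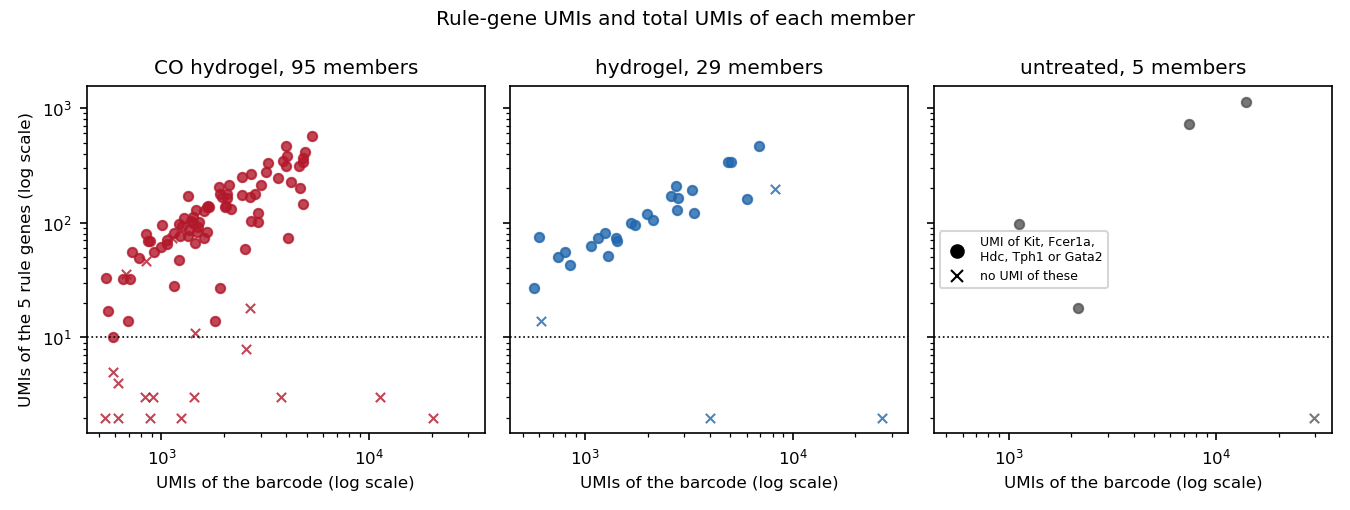
UMIs of the 5 rule genes against total UMIs of each mast cell barcode, both on log scales, with 1 panel per library. Filled points hold a UMI of Kit, Fcer1a, Hdc, Tph1 or Gata2 and crosses hold none, and the dotted line at 10 rule-gene UMIs separates the 113 well-marked members from the 16 sparsely marked ones, all of which are crosses.

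Granule proteases dominated the mast cell transcriptome, and Mcpt1l1, a chymase-family protease that the rule did not use, led them. In well-marked members the 5 proteases took 12.5% of all UMIs in the CO hydrogel, 10.0% in the hydrogel and 14.2% in the untreated group, with single cells between 0.934% and 22.0%. Over all members Mcpt1l1 reached 46478 CPM (45575 to 47396) in CO hydrogel mast cells, 32958 CPM (31835 to 34109.8) in hydrogel mast cells and 28534 CPM (27128 to 29994) in untreated mast cells. In well-marked members it had 58825, 47944 and 62877 CPM in the same group order, so the untreated level went from lowest to highest. Levels below are over all members unless stated. The order of the groups can change likewise in well-marked members, as it did for Cma1, Fcer1a and Hdc. The other kept barcodes of the same libraries held 48.9, 22.9 and 5.38 CPM, where CPM is UMIs of the gene per 1000000 summed UMIs. Mast cells held 64.5% of all Mcpt1l1 UMIs of the 3 libraries. Here and below, other kept barcodes include those with at least 2 rule genes and a UMI of Pdgfra, Csf1r or Csf3r. Those with at least 10 rule-gene UMIs held 10300 (CO hydrogel), 4459 (hydrogel) and 1349 (untreated) UMIs of the 5 proteases. Barcodes that were neither mast cells nor such held 1596, 749 and 189. Protease shares in mast cells, and protease ratios to other barcodes, are thus lower than with such barcodes left out.

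Of the genes that chose the members, Cma1 (mast cell chymase) was the most abundant, with 24205 CPM in CO hydrogel mast cells, 15036 CPM in hydrogel mast cells and 13066 CPM in untreated mast cells. Cpa3 (carboxypeptidase A3) had 12546 CPM in CO hydrogel mast cells, 8900.1 CPM in hydrogel mast cells and 8427 CPM in untreated mast cells. The tryptase Tpsb2 had 9941 CPM in CO hydrogel mast cells, 7574 CPM in hydrogel mast cells and 11717 CPM in untreated mast cells, and the tryptase Tpsab1 had 5635 CPM in CO hydrogel mast cells, 4313 CPM in hydrogel mast cells and 2754 CPM in untreated mast cells. Cma1 was above Cpa3, Cpa3 above Tpsb2 in the CO hydrogel and hydrogel groups, and Tpsab1 lowest of the 4 in every group. These are UMI levels from 3-prime ends, which do not scale with transcript length.

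The balance of the proteases was close in the 3 groups apart from Tpsb2. In well-marked members Mcpt1l1 made up 47.1% of the summed protease UMIs in the CO hydrogel, 47.9% in the hydrogel and 44.3% in the untreated group, and Cma1 24.4%, 21.8% and 20.2%. Cpa3 made up 12.7%, 12.9% and 13.0%. Tpsb2 made up 10.0%, 11.0% and 18.2%, the last from 4 cells of which 1 held 55.2% of the Tpsb2 UMIs. Cell by cell, the Mcpt1l1 part had a median of 47.7% (7.69 to 66.0%) in CO hydrogel, 47.5% (26.3 to 61.1%) in hydrogel and 44.2% (31.9 to 79.5%) in untreated cells. Mcpt1l1 was the highest of the 5 in 98 of the 113 cells, and 96 cells held Cpa3, Cma1, Tpsb2 and Tpsab1 together.

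**Figure D2:**
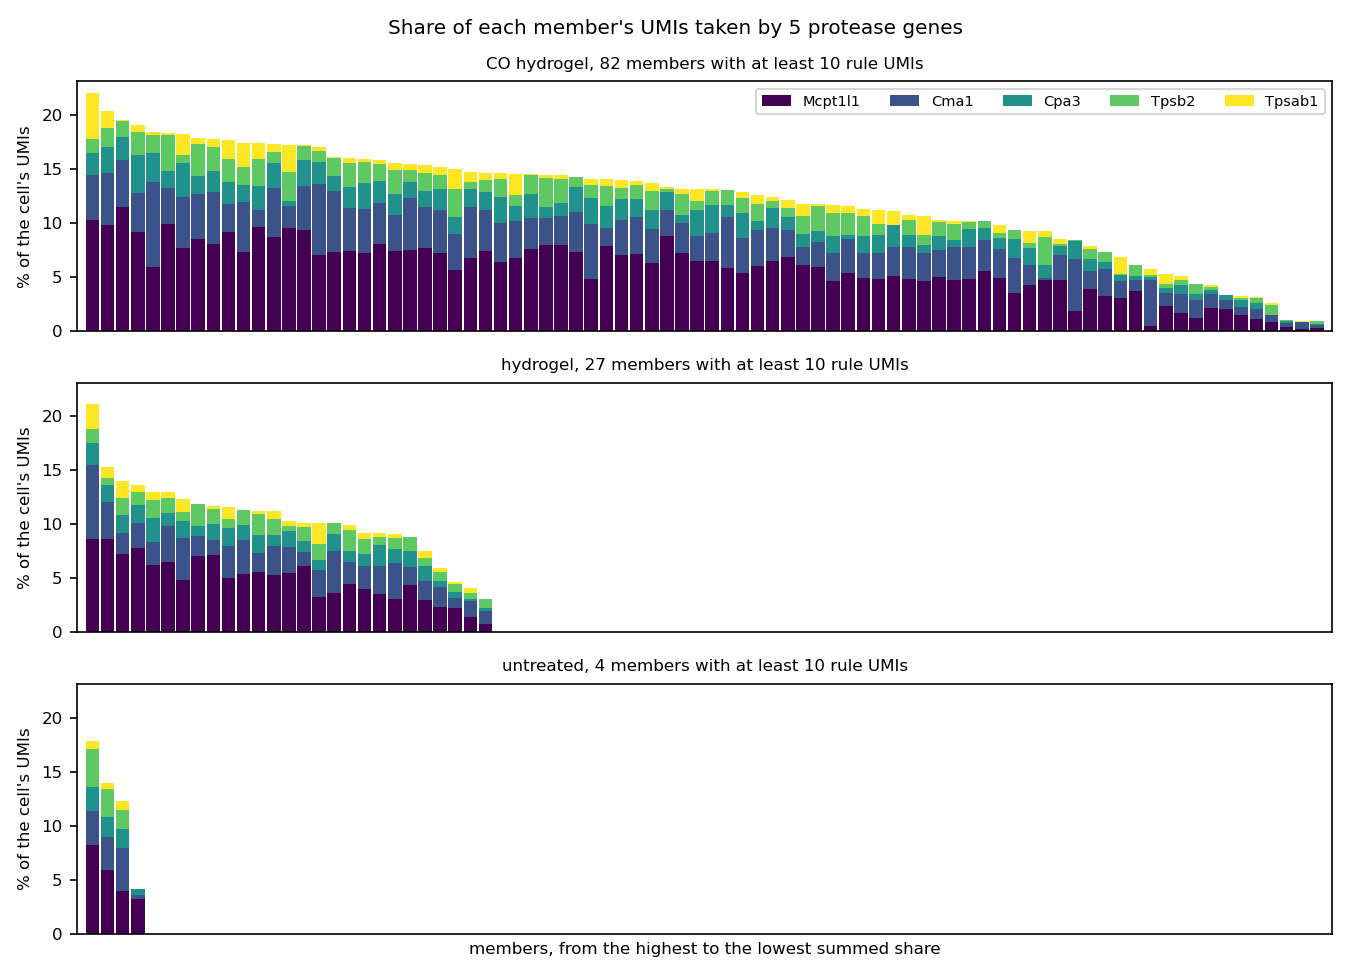
Percent of each well-marked mast cell's UMIs taken by 5 protease genes, stacked by gene, with cells ordered from the highest to the lowest sum in the CO hydrogel (82 cells), hydrogel (27) and untreated (4) libraries. The sums run from 22.0% down to 0.934%, and Mcpt1l1 is the largest piece in 98 of the 113 bars.

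Other proteases were scarce. Of the 18 listed granule proteases 13 were in the files, and in each of the CO hydrogel and hydrogel groups 7 had a UMI and 5 had at least 10. Over all mast cells Tpsg1, a membrane-anchored tryptase, had 9 UMIs, Mcpt1l4 had 2 and Mcpt4 had 1. Mcpt1, Mcpt1l3, the cathepsin G gene Ctsg and the granzyme genes Gzmb and Gzmc were at 0, where 3 counts of the members' 369361 UMIs would be 8.12 CPM. The chymase genes are close relatives: the 250 promoter bases of Mcpt1l1 aligned with 206 identical bases to those of Mcpt1l3 (84.1% of aligned pairs), 202 to Mcpt1 (84.9%) and 158 to Cma1 (76.7%). These bases lie before the start, so they do not show how alike the counted reads were. How the counting assigned reads among close copies is not given. The assignment to Mcpt1l1, the counts of 0 in its relatives and the split between the tryptases are thus uncertain. Mcpt2, Mcpt9 and Mcpt10 were not analysed here.

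Protease transcripts also lay outside the mast cells at low level. In the CO hydrogel library 91 of 95 mast cells (median 1594 UMIs) held a Mcpt1l1 UMI, against 2.95% of neutrophil-gated barcodes (a Csf3r UMI and none of Csf1r or Pdgfra; median 1425 UMIs) and 6.59% of fibroblast-gated barcodes (a Pdgfra UMI and none of Csf1r or Csf3r; median 9869 UMIs). In the hydrogel library 27 of 29 mast cells held it, against 1.38% and 2.85% of those classes. Macrophage-gated barcodes (a Csf1r UMI), the class into which barred barcodes with Csf1r fall, held 216 CPM of Mcpt1l1 in the CO hydrogel and 56.8 CPM in the hydrogel library. In CO hydrogel barcodes that were neither mast cells nor barred, the split of the 5 proteases was 50.5% Mcpt1l1, 18.6% Cma1, 12.1% Cpa3, 11.0% Tpsb2 and 7.77% Tpsab1. RNA free in the droplets was not separated from RNA of the cell.

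The IgE receptor's alpha chain was concentrated in mast cells, while the gamma chain was not. The beta chain gene helped to choose the members, so its concentration in them follows from the rule. Fcer1a, not used by the rule, had 434 CPM (351 to 531) in CO hydrogel mast cells, 304 CPM (205 to 434) in hydrogel mast cells and 222 CPM (115 to 387) in untreated mast cells, and 69% of its UMIs lay in mast cells. It was detected in 41 of 95 CO hydrogel, 14 of 29 hydrogel and 3 of 5 untreated mast cells. The rule gene Ms4a2 had 1113 CPM in CO hydrogel mast cells, 446 CPM in hydrogel mast cells and 425 CPM in untreated mast cells. Fcer1g, which other myeloid receptors share, had 1109 CPM in CO hydrogel mast cells, 1337 CPM in hydrogel mast cells and 665 CPM in untreated mast cells, and its log2 ratio to other barcodes was 1.07 in the CO hydrogel library and 0.03 in the hydrogel library.

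Of the 21 listed genes of the receptor and its signalling, 12 had at least 10 UMIs in CO hydrogel mast cells and 11 in hydrogel mast cells. The rule gene Ms4a2 is among them in both groups, so the values below are in part set by the rule. Their median log2 ratio to other barcodes was 2.80 in the CO hydrogel library, against 0.10 over all genes with 10 UMIs, and 1.72 in the hydrogel library, against 0.26 over all. The count at least 4-fold higher was 7 of 12 and 4 of 11, where 8.44% of all genes with 10 UMIs passed that fold in the CO hydrogel and 7.12% in the hydrogel library. The adaptor Lat had 453 CPM in CO hydrogel mast cells, 344 CPM in hydrogel mast cells and 185 CPM in untreated mast cells, with log2 ratios of 5.77 and 4.87 in the CO hydrogel and hydrogel libraries. Lcp2, the adaptor SLP-76, had ratios of 3.39 and 1.72, and the kinase Lyn 2.21 and 1.14. Rgs13, a brake on G protein signalling, had 139 CPM in CO hydrogel mast cells, 172 CPM in hydrogel mast cells and 111 CPM in untreated mast cells, and 62.4% of its UMIs lay in mast cells. The kinase Syk had only 10 UMIs.

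Receptors for stem cell factor and cationic peptides followed. Kit, the receptor of stem cell factor, had 633 CPM (531 to 748) in CO hydrogel mast cells, 456 CPM (332 to 609.7) in hydrogel mast cells and 296 CPM (169 to 480.2) in untreated mast cells and was detected in 81 of 129 mast cells. Only 10.4% of Kit UMIs lay in mast cells, and endothelial-gated barcodes also held it, at 42.1 CPM in the CO hydrogel and 33.2 CPM in the hydrogel library.

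Mrgprb3 and Mrgprx2 belong to the Mas-related receptors, of which human MRGPRX2 is the mast cell receptor for cationic peptides. Mrgprb3 had 540.4 CPM in CO hydrogel mast cells, 496 CPM in hydrogel mast cells and 111 CPM in untreated mast cells, was detected in 71 cells and had 61.9% of its UMIs in mast cells. Mrgprx2 had 245 CPM in CO hydrogel mast cells, 122 CPM in hydrogel mast cells and 129 CPM in untreated mast cells and was detected in 42 cells. Il1rl1, the receptor of interleukin 33, was sparse: 38 UMIs in 28 cells, with log2 ratios of -0.49 and 1.47, and CO hydrogel mast cells held less of it than fibroblast-gated barcodes of that library did (87.8 against 192 CPM). Il2rg (2.58 and 1.90), Il3ra (2.40, and 1.63 from 9 UMIs) and the ATP-gated channel P2rx1 (4.62, and 4.09 from 5 UMIs) also had log2 ratios above 0 in CO hydrogel and hydrogel mast cells. Tlr4 was at 0.

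Genes for making, storing and taking up amines were among the most concentrated in mast cells. Hdc, the histidine decarboxylase that makes histamine, had 956 CPM (830.3 to 1096) in CO hydrogel mast cells, 648 CPM (499 to 828) in hydrogel mast cells and 924 CPM (686 to 1218) in untreated mast cells. It was detected in 90 mast cells and its log2 ratio to other barcodes was 8.87 in the CO hydrogel library and 8.71 in the hydrogel library. Tph1, the tryptophan hydroxylase that starts serotonin synthesis, had 804 CPM (689 to 932) in CO hydrogel mast cells, 719 CPM (561 to 907) in hydrogel mast cells and 425 CPM (269 to 638) in untreated mast cells, with 52.3% of its UMIs in mast cells. Among well-marked members 65 of 113 held both Hdc and Tph1.

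The serotonin transporter Slc6a4 had 416 CPM in CO hydrogel mast cells, 213 CPM in hydrogel mast cells and 388 CPM in untreated mast cells, and the vesicular monoamine transporter Slc18a2, which loads amines into granules, had 139 CPM in CO hydrogel and 122 CPM in hydrogel mast cells and 0 UMIs in untreated ones. Ddc, the decarboxylase of the second step to serotonin, had 5 UMIs, 15.6% of its total. Gch1, the first enzyme of the pathway to the hydroxylase cofactor tetrahydrobiopterin, had log2 ratios of 3.44 and 2.87. The histamine-degrading gene Hnmt was at 0. Of 13 listed amine genes 6 had at least 10 UMIs in each library, and 5 of 6 were at least 4-fold higher in both. Over all genes with 10 UMIs, 8.44% passed that fold in the CO hydrogel and 7.12% in the hydrogel library. The median log2 ratio of the amine genes was 8.03 in the CO hydrogel and 8.15 in the hydrogel library.

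**Figure D3:**
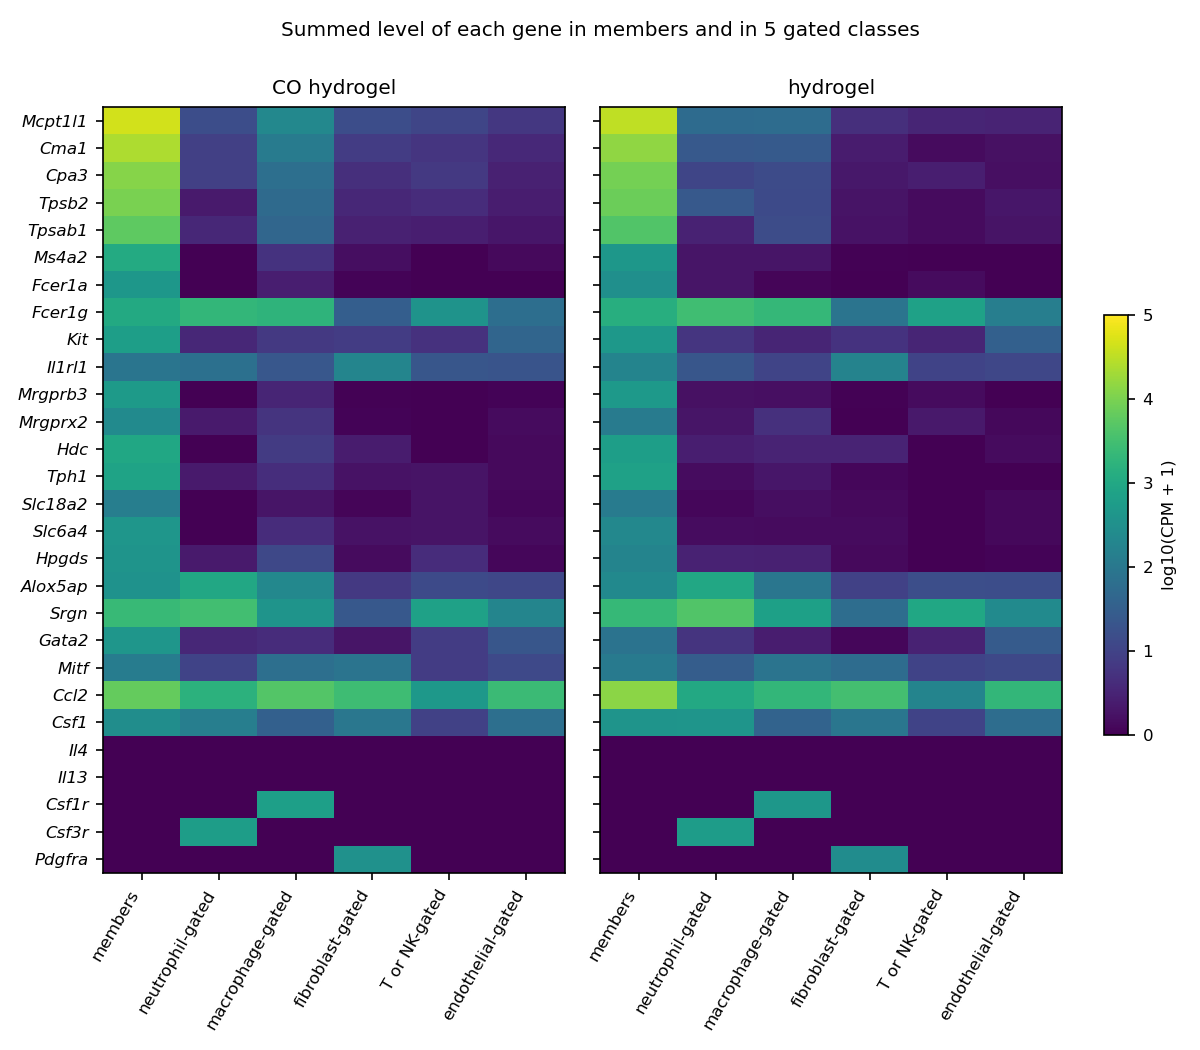
Summed level of each gene, as log10 of CPM plus 1, in mast cells and in 5 classes gated by other marker genes, for the CO hydrogel and hydrogel libraries. Proteases, Hdc, Tph1, Fcer1a and Mrgprb3 are brightest in the mast cell column, the proteases with a fainter signal in the macrophage-gated column, while Fcer1g, Srgn and Ccl2 are bright in several columns. Csf1r, Csf3r and Pdgfra are set to 0 in most columns by the gates.

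Serglycin, the core protein that carries heparin in the granule, was abundant without being specific. Srgn had 2333 CPM in CO hydrogel mast cells, 2258 CPM in hydrogel mast cells and 2292 CPM in untreated mast cells and was detected in 114 mast cells, but mast cells held only 0.343% of its UMIs. Its log2 ratio to other barcodes was 3.59 (3.46 to 3.71) in the CO hydrogel library, 1.54 (1.34 to 1.73) in the hydrogel library and 0.29 (0.03 to 0.55) in the untreated library, as the level in other barcodes was 194, 777 and 1870.2 CPM. Papss2, which makes the sulfate donor, had ratios of 2.66 and 3.58. Of 19 listed heparin genes 8 and 5 had at least 10 UMIs in the CO hydrogel and hydrogel groups, with median log2 ratios of 0.99 and 1.54. Ndst2, the sulfotransferase that mouse mast cell heparin needs, was at 0.

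Of the lipid mediator genes, prostaglandin D synthase stood out. Hpgds had 388 CPM (309 to 480.4) in CO hydrogel mast cells, 182 CPM (108 to 288) in hydrogel mast cells and 148 CPM (63.8 to 291) in untreated mast cells, with log2 ratios of 6.91 in the CO hydrogel library and 7.10 in the hydrogel library. Ptgs2, the inducible cyclooxygenase, had 2009 CPM in CO hydrogel mast cells, 1306 CPM in hydrogel mast cells and 462 CPM in untreated mast cells, and other barcodes held 912, 1171 and 2168 CPM of it, so that it was higher in CO hydrogel mast cells than in their neighbours (1.14) and lower in untreated ones (-2.23). On the leukotriene side, the 5-lipoxygenase activating protein Alox5ap had ratios of 2.30 and 0.90, Alox5 had 13 UMIs and the leukotriene C4 synthase gene Ltc4s had 1. Pla2g7, which breaks down platelet-activating factor, had 577 CPM in CO hydrogel mast cells, 668 CPM in hydrogel mast cells and 185 CPM in untreated mast cells.

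Among the transcription factors named here with at least 10 UMIs, Gata2 had the highest ratio to other barcodes in the CO hydrogel library. Gata2 had 416 CPM (334 to 511) in CO hydrogel mast cells, 81 CPM (35 to 159.6) in hydrogel mast cells and 185 CPM (88.6 to 339.9) in untreated mast cells, and was detected in 41 of 95, 7 of 29 and 1 of 5 cells. Its log2 ratio to other barcodes was 6.92 in the CO hydrogel library and 4.77 in the hydrogel library, the second from 8 UMIs. Gata1 was rare but concentrated, with 7 UMIs in 7 mast cells that made up 70% of its total. Tal1, a partner of GATA factors, had ratios of 4.78 and 5.01, the second from 7 UMIs, and the homeobox gene Meis2 2.90 and 3.69, the second from 9 UMIs. Mitf was only modestly higher, at 0.92 and 0.88. Of 30 listed factors, 13 had 10 UMIs in CO hydrogel mast cells, of which 6 were at least 4-fold higher. In hydrogel mast cells 8 had 10 UMIs, of which 0 were at least 4-fold higher. Over all genes with 10 UMIs, 8.44% passed that fold in the CO hydrogel and 7.12% in the hydrogel library, so 0 of 8 is near the share of all genes. The medians of the factors were 1.16 and 0.88.

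Ccl2 was the most abundant of the cytokine genes named, and several type 2 cytokine genes were at 0. Ccl2, the monocyte chemoattractant, had 6462 CPM (6128 to 6810.0) in CO hydrogel mast cells, 13598 CPM (12881 to 14345) in hydrogel mast cells and 10090.4 CPM (9262 to 10973) in untreated mast cells and was detected in 121 of 129 cells. Its log2 ratio to other barcodes was 1.07 in the CO hydrogel library and 2.63 in the hydrogel library. Csf1, the macrophage growth factor, had 277 CPM in CO hydrogel mast cells, 395 CPM in hydrogel mast cells and 92.4 CPM in untreated mast cells, with ratios of 1.99 and 2.33. Il4, Il5, Il13, Il3, Il9 and Il10 had 0 UMIs in all mast cells, and Tnf had 3. The neutrophil chemoattractants Cxcl1 (-2.86 and -1.13) and Cxcl2 (-1.15 and -1.51), the interleukin Il1b (-0.61 and -2.09) and the chemokine Ccl4 (-3.41, and -3.41 from 6 UMIs) were lower in mast cells than in other barcodes. Over the 32 listed cytokines the median log2 ratio was -1.15 for the 11 with 10 UMIs in the CO hydrogel group and -0.55 for the 9 in the hydrogel group.

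Among genes detected well enough in mast cells, more were higher than lower against other barcodes. Of 1168 genes with at least 10 UMIs and a UMI in 20% of CO hydrogel mast cells, 122 (10.4%) were at least 4-fold higher than in other barcodes and 17 (1.46%) at least 4-fold lower. Of 1370 such genes in hydrogel mast cells, 98 (7.15%) were higher and 14 (1.02%) lower. Among the 1013 genes measured in both libraries 75 were at least 4-fold higher in both. The rule used this contrast, so the counts describe the choice and are no support for it. The UMI and detection limits applied to mast cells only, so genes scarcer in mast cells could not count as lower. The balance of higher and lower genes thus depends on these limits. The 24 named genes are those with a symbol whose smaller log2 ratio of the CO hydrogel and hydrogel libraries was highest, the rule genes aside.

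Beside the receptors, amine genes and Hpgds already given, the 24 held several genes of signalling and secretion. Milr1, an inhibitory receptor (Allergin-1) that dampens IgE responses, had 716 CPM in CO hydrogel mast cells, 789.8 CPM in hydrogel mast cells and 240.2 CPM in untreated mast cells, with log2 ratios of 6.95 and 6.18. Cd72, an inhibitory co-receptor best known from B cells, had 531 CPM in CO hydrogel mast cells, 577 CPM in hydrogel mast cells and 407 CPM in untreated mast cells. Fcmr, a receptor for IgM, had ratios of 4.53 and 5.42. Serpinb1a, an inhibitor of serine proteases, was the most abundant of the 24 after Mcpt1l1, with 6231 CPM in CO hydrogel mast cells, 6419 CPM in hydrogel mast cells and 2717 CPM in untreated mast cells.

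Sytl3, a partner of Rab27 on secretory vesicles, had 180.1 CPM in CO hydrogel mast cells, 142 CPM in hydrogel mast cells and 18.5 CPM in untreated mast cells, the last from 1 UMI. Resp18, a secretory granule protein of endocrine cells, had ratios of 7.50 and 7.08, and the solute carrier Slc45a3 had 7.23 and 7.42. The actin regulators Cracd (6.56 and 7.19) and Carmil1 (4.18 and 4.61), the kinase subunit Camk2b (5.09 and 4.89) and Ttc39b (4.39 and 4.53) were also among the named genes. Ranked by the share of their UMIs that lay in mast cells, Fcer1a (69%), Mcpt1l1 (64.5%), Rgs13 (62.4%), Mrgprb3 (61.9%) and Tph1 (52.3%) led, and Carmil1 (2.62%) and Ttc39b (2.66%) came last.

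**Figure D4:**
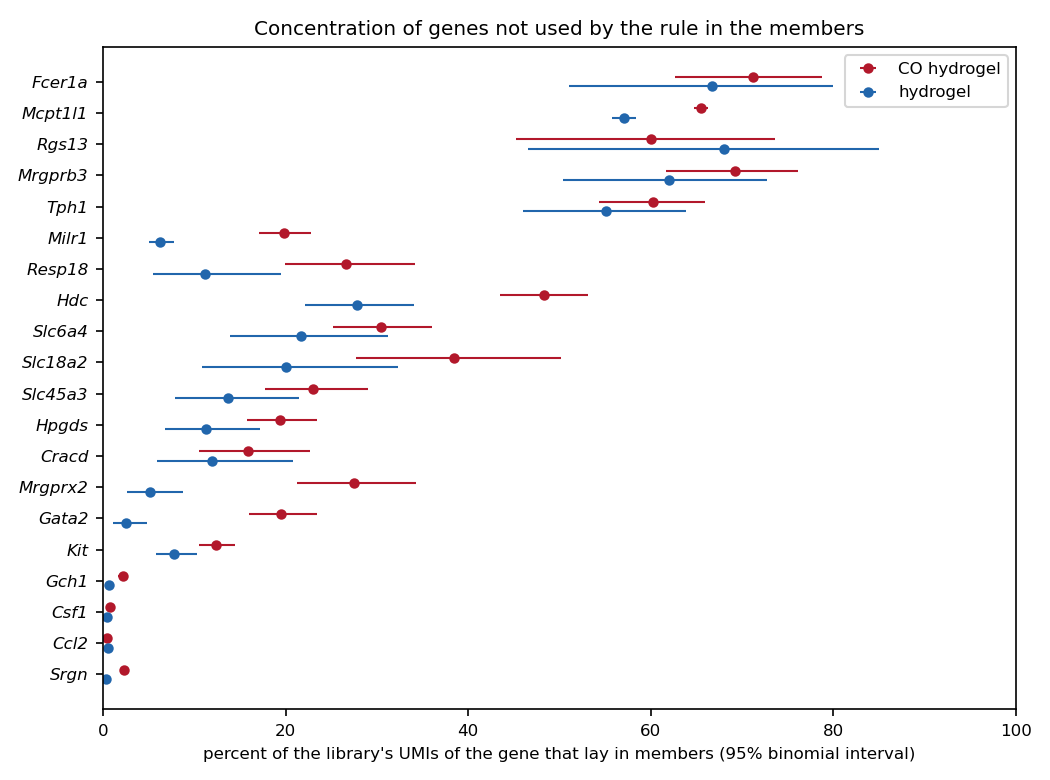
Percent of a library's UMIs of each gene that lay in mast cells, for the CO hydrogel and hydrogel libraries, with 95% exact binomial intervals. Fcer1a, Mcpt1l1, Rgs13, Mrgprb3 and Tph1 sit above 50% in both libraries, while Srgn, Ccl2 and Csf1 sit below 3%.

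The general secretory and lysosomal genes set mast cells apart less. Of 33 listed exocytosis genes 10 had 10 UMIs in CO hydrogel mast cells, 4 of them at least 4-fold higher. In hydrogel mast cells 5 had 10 UMIs, 1 of them at least 4-fold higher. Over all genes with 10 UMIs, 8.44% passed that fold in the CO hydrogel and 7.12% in the hydrogel library. The median log2 ratio of the exocytosis genes was 1.54 in both. The granule-docking GTPases Rab27b (5.04, and 4.98 from 7 UMIs) and Rab27a (3.54 and 3.45) were high, and Vamp8, a granule fusion protein, had 1 UMI. Lysosomal genes lay below other barcodes, with medians of -0.42 over 18 genes and -0.80 over 14, among them the cathepsin gene Ctsb (-1.51 and -1.04). Immediate early and dissociation genes were close to other barcodes, at 0.22 over 22 genes and -0.14 over 21, although Nr4a3 had ratios of 1.87 and 2.15. The granule tetraspanin Cd63 was near the level of other barcodes (0.45 and 0.41), whereas the ectoenzyme Enpp3 was higher (2.18 and 2.77).

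Markers of neighbouring cell types were read in the same sums. Of the basophil genes, Prss34, Mcpt8l2 and Ccr3 were at 0 and Mcpt8l3 had 1 UMI, while Mcpt8 and Cd200r3 were not analysed here. Fibroblast markers summed to 0.835% of UMIs in CO hydrogel and 0.988% in hydrogel mast cells, against 5.61% and 2.68% in the other barcodes. Macrophage markers summed to 0.0698% and 0.128%, against 0.566% and 0.885%. Neutrophil markers summed to 1.01% and 0.0395%, against 0.178% and 0.522%, and the CO hydrogel value lay mostly in the sparsely marked member of 20409 UMIs. Proliferation genes were rare: Mki67 was detected in 4 and Top2a in 4 of 129 cells.

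Between the CO hydrogel and hydrogel libraries, the 5 proteases lay at log2 ratios of 0.39 to 0.69 over all members and 0.18 to 0.48 in well-marked ones. Without the well-marked hydrogel cells of 8215 and 6036 UMIs described below, Cma1 was at 0.31, Mcpt1l1 0.08, Cpa3 0.06, Tpsb2 0.03 and Tpsab1 -0.02. The largest ratios of all rested mostly on single sparsely marked cells. Of 822 genes with 50 UMIs over both libraries and a UMI in 20% of the cells of a library, 38 (4.62%) were at least 2-fold higher in CO hydrogel mast cells and 43 (5.23%) at least 2-fold lower. With TMM scaling, which moves all ratios by 0.20 on the log2 scale, the same counts were 58 and 26. The highest log2 ratios were Mgp at 6.29 (3.79 to 11.60), the keratin Krt17 at 5.75 (4.62 to 7.20) and the calprotectin genes S100a8 at 5.69 (4.80 to 6.75) and S100a9 at 4.79 (4.08 to 5.60). A single CO hydrogel cell held 68.4% of the Mgp, 97.0% of the Krt17, 97.8% of the S100a8 and 96.5% of the S100a9 UMIs. Fabp5 at 2.35 (1.89 to 2.83) had 94.4% in 1 cell. In well-marked members S100a8 (-0.07 (-1.19 to 1.16)), S100a9 (-0.05 (-0.99 to 0.96)) and Krt17 (0.35 (-1.17 to 2.15)) had intervals that held 0, and Fabp5 was at -1.90 (-2.73 to -1.09). Mgp stayed higher there, at 3.19 (0.57 to 8.56), from 23 UMIs in 15 CO hydrogel cells and 1 UMI in hydrogel cells.

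Gata2, Dbndd2 and Oaf were among the 10 highest ratios without resting on 1 cell. The Gata2 level was 416 CPM (334 to 511) in CO hydrogel mast cells, from 90 UMIs, and 81 CPM (35 to 159.6) in hydrogel mast cells, from 8 UMIs. The log2 ratio was 2.36 (1.32 to 3.61), with no cell holding over 25.0% of the UMIs of its group. In well-marked members the ratio was 2.16 (1.12 to 3.42), and 41 of 82 CO hydrogel cells and 7 of 27 hydrogel cells held the gene. In the other barcodes the ratio was 0.21. As a mean of per-cell CPM the ratio over all members was 1.23. The 10 untreated Gata2 UMIs all lay in 1 cell. Dbndd2 and Oaf were both at 1.73 (0.59 to 3.12) over all members, and in well-marked ones at 1.42 (0.26 to 2.81) and 1.58 (0.34 to 3.10). By the naming rule in well-marked members, Stmn1 led at 2.70 (1.07 to 5.03), from 49 UMIs in CO hydrogel and 3 in hydrogel cells. Gata2 came next, followed by Tgoln2 at 1.82 (0.69 to 3.19), Gsn at 1.59 (0.87 to 2.38), with 64.7% of its CO hydrogel UMIs in 1 cell, Oaf, and Zfp36l2 at 1.54 (0.70 to 2.50).

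The 10 lowest ratios included the chemokine genes Cxcl3 and Cxcl1 and the heme and iron genes Hmox1 and Fth1. The values of Cxcl3, Cxcl1 and Fth1 rested largely on a few hydrogel cells, while Hmox1 stayed lower without them, as given below. Hmox1, the heme oxygenase that releases carbon monoxide from heme, had 199 CPM (144 to 268) in CO hydrogel and 962 CPM (778 to 1176) in hydrogel mast cells, a log2 ratio of -2.28 (-2.83 to -1.74). It was detected in 16 of 95 and 13 of 29 cells, and the ratio was -1.10 in other barcodes. In well-marked members it was -2.29 (-2.90 to -1.70). Fth1, the ferritin heavy chain, was at -1.60 (-1.70 to -1.50) over all members, at -1.95 (-2.06 to -1.85) in well-marked ones and at -1.47 in other barcodes. The quinone reductase gene Nqo1 had a ratio of -1.56 (-2.43 to -0.71) in well-marked members and -0.86 in other barcodes. Of the 6 measured genes of the heme, CO and antioxidant list 3 were at least 2-fold lower, where 5.23% of all 822 genes were, 0 were higher, and the median was -1.08, against 0.01 over all. Of 7 measured cytokine and chemokine genes 5 were at least 2-fold lower, with a median of -1.53.

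One well-marked hydrogel cell, of 6036 UMIs, held 44.8% of the Fth1 and 48.6% of the Hmox1 UMIs of its group, and another, of 8215 UMIs, held 33.8% and 8.33%. A CO hydrogel cell of 4778 UMIs held 24.9% of the Fth1 and 51.4% of the Hmox1 UMIs of well-marked CO hydrogel cells. Without both hydrogel cells Fth1 was at -0.067 (-0.23 to 0.097) and Hmox1 at -1.42 (-2.14 to -0.68) in well-marked members. Without the CO hydrogel cell as well, Fth1 was at -0.44 (-0.61 to -0.27) and Hmox1 at -2.41 (-3.34 to -1.53). The heme list then had medians of -0.12 without the 2 hydrogel cells and -0.40 without all 3, and 2 of its 6 genes were at least 2-fold lower in both cases. The cytokine list had medians of 0.53 and 0.17, with Cxcl1 at 0.75 and 0.44 and Cxcl3 at 1.42 and 0.87. Of its 7 measured genes 2 were at least 2-fold lower in both cases. They were Ccl2, at -1.51 and -1.50, and Il1b, at -1.10 (-1.69 to -0.49) and -1.23 (-1.85 to -0.61). Gata2 was at 1.82 (0.78 to 3.08) and 1.86 (0.82 to 3.12). These cells were chosen after their values were seen. Macrophage markers took 0.530%, 0.377% and 0.481% of the UMIs of the cells of 6036, 8215 and 4778 UMIs. Well-marked hydrogel members had a median of 0.0385% and a highest value of 0.812%. Well-marked CO hydrogel members had a median of 0%, and the cell of 4778 UMIs was their highest. Whether macrophage RNA gave the Fth1, Hmox1 and chemokine UMIs of these 3 cells was not tested.

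Single hydrogel cells also bore on the lower ratios. Uap1 at -1.68 (-2.49 to -0.89) had 91.4% of its hydrogel UMIs in 1 cell, Hmgb2 at -1.96 (-2.56 to -1.38) 76.1% and Emp1 at -1.67 (-2.02 to -1.31) 72.7%. Apoe, at -2.14 in well-marked members, had 76.4% of its hydrogel UMIs in 1 cell of 8215 UMIs with no UMI of Kit, Fcer1a, Hdc, Tph1 or Gata2, and was at -0.24 without it. Ezr, the membrane linker ezrin, was lowest over all members at -2.75 (-3.70 to -1.88), from 15 UMIs in CO hydrogel and 46 in hydrogel mast cells.

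Most receptor and amine genes lay within 1 of 0 on the log2 scale. Kit (0.47 (-0.02 to 0.99)), Fcer1a (0.52 (-0.09 to 1.16)), Tph1 (0.16 (-0.25 to 0.58)), Mrgprb3 (0.12 (-0.37 to 0.64)) and Srgn (0.05 (-0.18 to 0.28)) had intervals that held 0. Those of Hdc (0.56 (0.15 to 0.99)), Slc6a4 (0.97 (0.27 to 1.73)), Hpgds (1.09 (0.34 to 1.91)), Mrgprx2 (1.01 (0.09 to 2.05)) and Ms4a2 (1.32 (0.85 to 1.82)) did not over all members. In well-marked members Hdc (0.36 (-0.05 to 0.79)), Hpgds (0.59 (-0.18 to 1.42)) and Mrgprx2 (0.81 (-0.11 to 1.85)) had intervals that held 0, while Ms4a2 stayed at 1.12 (0.65 to 1.61). Ccl2 ran the other way, at -1.25 (-1.36 to -1.14) in well-marked members, with medians of 57.1 and 118 UMIs per 10000 in CO hydrogel and hydrogel cells. The 5 measured proteases had a median ratio of 0.50 over all members, and Mcpt1l1 was at 0.30 (0.24 to 0.35) in well-marked ones. Over all members Mcpt1l1 was at 0.13 as a mean of per-cell CPM and at 0.012 without the barcodes marked as doublets.

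**Figure D5:**
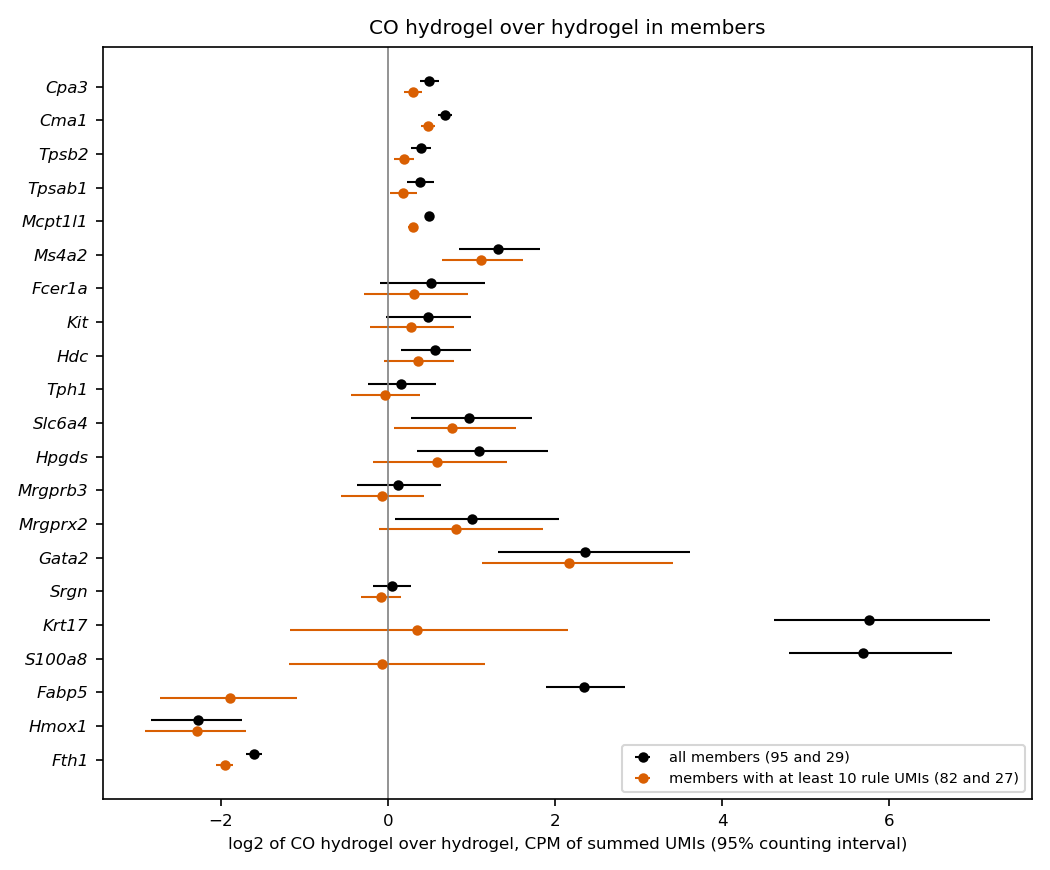
Log2 ratio of CO hydrogel over hydrogel mast cells for mast cell genes and genes of the highest and lowest ratios, from CPM of summed UMIs with 95% counting intervals, over all members (95 and 29 cells) and over well-marked members (82 and 27 cells). Most mast cell genes lie within 1 of 0, Gata2 lies above 2 and Hmox1 below -2 in both sets, and Krt17, S100a8 and Fabp5 move by over 4 when the sparsely marked members are left out.

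The barcodes barred for a UMI of Pdgfra, Csf1r or Csf3r included cells as rich in mast cell transcripts as the members. Of the 57, 32 had at least 10 rule-gene UMIs, 20 in the CO hydrogel, 10 in the hydrogel and 2 in the untreated library. The 5 proteases took 11.8%, 8.76% and 10.7% of their UMIs, and each of the 32 held a UMI of Kit, Fcer1a, Hdc, Tph1 or Gata2. Their median depth was 3963.5, 5300 and 6292.5 UMIs, above the 1660, 1742 and 4779 of the well-marked members. Csf1r UMIs barred 22 CO hydrogel and 11 hydrogel barcodes of the 57, and Pdgfra UMIs barred 17 and 1. The counts of mast cells by the rule are therefore lower than the counts of barcodes with a mast cell signal, and whether the barred barcodes held 1 cell or several was not tested.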

How the data were processed

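Single-cell 3-prime RNA was measured in 3 wound libraries, 1 per group. The deposited matrices hold counts, unnormalized UMI counts per gene and barcode. The authors' counting tool was Cell Ranger, at version 6.0.1 per the file headers and 7.0.0 per the submitters' processing notes, which also list build rn6, DESeq 1.38.0 and Seurat 4.2.0. Of 32883 features 23490 had a gene name, and 21 of the 488 listed genes, such as Pecam1, Col1a2, Trac and Snap23, were not analysed here.

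The 43701 deposited barcodes were filtered and the mast cell rule applied. UMIs were summed over mast cells of a library and given as CPM with exact Poisson intervals. Ratios have exact conditional binomial intervals, and shares exact binomial ones. With 1 library per group and members chosen on the same counts, no test was made. Ratios to other barcodes count genes with at least 10 UMIs, in 20% of members for the 4-fold counts. The 24 genes with the highest smaller ratio, and the 10 highest and 10 lowest CO hydrogel to hydrogel ratios among genes not over 5 times higher in another gated class, were named, and so were genes of the 28 lists; 1 of the 24 is not reported here. Members and lists were chosen with earlier results of these data known. The intervals were tested on simulated data. The alternatives are those given in the closing section, and Scrublet marked 0.8% per 1000 barcodes. The tools were scanpy 1.11.5 (Scrublet), edgeR 4.0.16 in R 4.3.3 (TMM factors), biopython 1.88 (alignment), scipy 1.17.1, numpy 2.4.6, pandas 2.3.3 and matplotlib 3.10.9 under Python 3.11.15.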

Additional observations from a re-analysis of the deposited data

How the results depend on the processing

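With a stricter cell filter (1000 UMIs, 500 genes, 10% mitochondrial UMIs) the CO hydrogel mast cells numbered 63 and made up 0.509% of barcodes. With no barring genes the shares were 0.905% in the CO hydrogel and 0.300% in the hydrogel library, and the untreated members numbered 8. With 3 rule genes required the untreated members numbered 3. With no minimum count and 0.5 counts added, 7013 genes in the CO hydrogel and 8046 in the hydrogel library were at least 4-fold higher in mast cells, and 4 lists rather than 11 had a hydrogel median above that of all genes. Between CO hydrogel and hydrogel mast cells that setting gave 1814 genes higher and 2531 lower, TMM factors gave 58 and 26, and leaving out barcodes marked as doublets gave 23 lower. TMM factors shift every ratio by 0.20, the other settings change which genes or cells enter, and the cause was not tested further.

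Ratios of CO hydrogel over hydrogel that changed sign from at least 2-fold over all members mostly rested on few cells. Smaller ratios spread over many cells also changed sign in well-marked members, such as Tph1 (-0.038), Mrgprb3 (-0.075) and Srgn (-0.086). S100a8 was at -0.19 with 3 rule genes, -0.068 with 10 rule-gene UMIs and -0.10 with the largest such hydrogel cell also left out, S100a9 was at -0.17, -0.051 and -0.13, and Fabp5 at -1.84, -1.90 and -1.85. Uap1 was at 1.42, 1.41 and 1.80 under the same 3 settings, 1.16 without marked doublets and 0.90 as a mean of per-cell CPM. Cxcl3 was at 2.63 without marked doublets, and Hmgb2 at 0.53 with 10 rule-gene UMIs and without that hydrogel cell. Without the hydrogel cells of 8215 and 6036 UMIs, and without those and the CO hydrogel cell of 4778 UMIs, S100a8 was at -0.26 and -0.22, S100a9 at -0.17 and -0.13, Fabp5 at -0.85 and -1.42, Cxcr4 at 0.72 and 0.18, Uap1 at 1.65 and 1.62, Cxcl1 at 0.75 and 0.44, Hmgb2 at 0.37 and 0.41 and Cxcl3 at 1.42 and 0.87 in well-marked members, and Krt17 was at -0.045 without all 3. Of 390 such gene ratios under alternatives, 33 changed sign from a main ratio at least 2-fold from equal. Of 221 list medians, 0 changed sign from a main median at least 4-fold from equal. Changes of sign from smaller ratios and medians were not counted. The settings with 10 rule-gene UMIs were chosen after seeing the data.

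No paired analysis was possible because each group is 1 library. Depth limits the untreated group most: with 54111 summed UMIs, 3 counts come to 55.4 CPM there, against 13.9 CPM in CO hydrogel and 30.4 CPM in hydrogel mast cells.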

Other observations

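The platelet glycoprotein gene Gp9 was concentrated in mast cells although it was chosen as a marker of platelets. It had 19 UMIs in 15 of 129 mast cells, 34.5% of its UMIs in the 3 libraries, with 69.3 CPM in CO hydrogel mast cells, 20.3 CPM in hydrogel mast cells and 37 CPM in untreated mast cells against 0.185, 0.121 and 0.0391 CPM in other barcodes. Of the other red cell and platelet markers, Hbb had 1 UMI and Hba-a1 had 3 in mast cells, while Pf4 had 117, with log2 ratios to other barcodes of 0.32 in the CO hydrogel and -0.30 in the hydrogel library. Gp9 was named after its values were seen.

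Growth and angiogenic factor genes were mostly low. Of 26 measured in the files, 6 had at least 10 UMIs in CO hydrogel and 3 in hydrogel mast cells. Their median log2 ratios to other barcodes were -0.65 and 0.25. In both groups 0 were at least 4-fold higher, where 8.44% and 7.12% of all genes with 10 UMIs were. Tgfb1, which drives matrix production, had 231 CPM in CO hydrogel mast cells, 162 CPM in hydrogel mast cells and 111 CPM in untreated mast cells and ratios of 0.94 and 0.25, while Vegfa, the vascular growth factor, had 10 UMIs. Interferon response genes had medians of -0.95 over 5 genes and -1.23 over 2, with Isg15 at 12 UMIs. Of the hyaluronan genes, 3 and 5 had at least 10 UMIs in the CO hydrogel and hydrogel groups, with medians of -0.14 and 1.18. Cd44, the hyaluronan receptor, had 365 CPM in CO hydrogel mast cells, 799.9 CPM in hydrogel mast cells and 259 CPM in untreated mast cells, and the 41 hydrogel UMIs of the synthase gene Has1 and the 33 of Has2 each lay in 1 cell. Surface and adhesion genes had medians of 0.60 over 9 genes and 0.68 over 8. Receptors of growth factors, cytokines and mediators had medians of 2.69 over 10 genes and 1.68 over 8, and prostaglandin and leukotriene genes 2.60 and 1.01 over 4 each. The basophil list, whose measured members include Fcer1a, had 2.16 over 4 and 1.42 over 3. Proliferation genes had 1.35 and 1.92 over 2 each, and the heme, CO and antioxidant list -0.077 over 9 and -0.43 over 7.

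Markers of the remaining cell types summed to less than in other barcodes, except T or NK and B, plasma and plasmacytoid markers in the hydrogel group and keratinocyte markers in the CO hydrogel and untreated groups. T or NK markers summed to 0.00323% of UMIs in CO hydrogel and 0.0557% in hydrogel mast cells, against 0.00562% and 0.0185% in other barcodes, and the hydrogel member of 26881 UMIs held them at 0.175% of its UMIs. Endothelial markers summed to 0.0319% and 0.00810%, against 0.0514% and 0.0393%. Mural markers summed to 0.0522% and 0.00405%, against 0.104% in each library. Dendritic markers summed to 0.0333% and 0.0952%, against 0.336% and 0.404%. B, plasma and plasmacytoid markers summed to 0.00693% and 0.0263%, against 0.0134% and 0.0177%, with 25 of the hydrogel UMIs from Irf8. Keratinocyte markers summed to 0.560%, 0.0111% and 3.14% in CO hydrogel, hydrogel and untreated mast cells, against 0.197%, 0.111% and 0.120%, the first mostly from the member of 20409 UMIs and the last from that of 29555.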
